A study of Mus musculus with 16 samples.

Results

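The genes described here are 41 genes of T cells, natural killer (NK) cells and thymocytes, listed by name, whose RNA was followed in mouse white and brown fat. They comprise 4 thymocyte genes (Rag1, Rag2, Dntt and Ptcra) and 37 genes of mature T and NK cells, out of 19096 genes named on the array. Probes were matched to 39 of the 41, and Ptcra and Cd8b1 were not analysed here. Of the 39, 35 cleared the background of the scan on each of the 4 arrays in some group and were tested, among 15469 genes tested in all. Rag1, Rag2, Foxp3 and Ctla4 did not reach that level in any group.

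The study compared male mice with an adipose-tissue-specific knockout of the glucocorticoid receptor with mice labelled wild-type, called controls below. The receptor, encoded by Nr3c1, is the nuclear receptor through which cortisol and corticosterone act on transcription. There were 4 groups of 4 one-colour Agilent arrays, a control and a knockout group for white tissue and the same for brown. The Cre driver, the age of the mice and the fat depot are not given in the sources used here. The series' design text calls the arrays of a group biological replicates, and replicate numbers are used as array numbers below.

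T cells recognise antigen through a receptor whose chains are carried to the surface by the CD3 proteins, with CD4 or CD8 as coreceptor. The kinases Lck and Zap70 and the adaptor Lat pass the signal on. NK cells kill without such a receptor, using perforin and granzymes that cytotoxic T cells also make. Thymocytes, the precursors of T cells in the thymus, assemble receptor genes with the Rag1 and Rag2 recombinase and the nucleotide-adding enzyme encoded by Dntt. Mature T cells circulate through lymph nodes, which in mice lie within fat, and are also resident in adipose tissue itself. Glucocorticoids are known to kill thymocytes and to restrain T cells.

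Upstream sequences are shown for a neighbouring pair of CD3 genes, whose levels varied widely between arrays, and for Rag1, which was at background. They are the 250 bases before the RefSeq start, from the GRCm38.p6 assembly, 5′ to 3′ on the strand of the gene. Capitals mark matches on either strand to 4 searched motifs that had any match in members: CAGGTG (E proteins), TGTGGT (RUNX), and CTTTGAT and CTTTGAA (TCF7 and LEF1). The Cd3g window is chr9:44980432-44980681 on the minus strand, the Cd3d window is chr9:44981536-44981785 on the plus strand, and the Rag1 window is chr2:101649533-101649782 on the minus strand.
Cd3g: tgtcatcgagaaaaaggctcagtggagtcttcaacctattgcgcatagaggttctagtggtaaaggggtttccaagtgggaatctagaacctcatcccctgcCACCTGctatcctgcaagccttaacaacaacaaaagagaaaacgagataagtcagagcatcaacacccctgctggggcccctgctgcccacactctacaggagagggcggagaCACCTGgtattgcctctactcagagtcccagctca
Cd3d: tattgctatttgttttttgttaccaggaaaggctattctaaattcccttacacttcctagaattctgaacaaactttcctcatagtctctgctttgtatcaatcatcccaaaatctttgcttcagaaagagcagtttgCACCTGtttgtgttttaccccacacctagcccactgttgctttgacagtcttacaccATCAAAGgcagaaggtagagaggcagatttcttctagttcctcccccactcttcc
Rag1: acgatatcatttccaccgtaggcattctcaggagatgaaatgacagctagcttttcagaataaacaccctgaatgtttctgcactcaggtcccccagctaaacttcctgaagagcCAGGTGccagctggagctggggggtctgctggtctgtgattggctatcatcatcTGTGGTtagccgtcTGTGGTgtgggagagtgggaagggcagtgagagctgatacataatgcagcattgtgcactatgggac

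Cd3g and Cd3d are transcribed away from each other from starts 1354 bases apart. CAGGTG reads on the strand opposite the gene, 148 and 35 bases before the Cd3g start and 112 bases before the Cd3d start, and CTTTGAT reads on the opposite strand 55 bases before the Cd3d start. Rag1 has CAGGTG at 135 bases before its start and TGTGGT at 81 and at 67. Windows were found for 33 of the 41 members, 48 in all with 9 members having more than 1, against 32851 windows over 27025 genes. A gene counts if any of its windows matches, so members had more windows per gene in which to match. CAGGTG was in the windows of 11 of these 33 (33.3%), against 19.4% of the 27025 genes with a window. TGTGGT was also in 11 of the 33 (33.3%), against 15.9% of genes. CTTTGAA was in 2 (Bcl11b and Txk, 6.06%, against 5.19% of genes), and CTTTGAT was in 2 (Cd3d and Trat1, 6.06%, against 3.72%). The glucocorticoid receptor motif was searched as GNACA and TGTNC with 3 bases of any kind between them. It was in none of the 48 windows of the 33 members and in 0.44% of genes. This says only that these letters are not in these windows. No motif overlapped another in the 3 windows shown, and a match is a description of the letters.

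All levels below are on the log2 scale of intensity, less each array's 75th percentile, so that 0 is the brightness of the 75th-percentile probe. Levels of one gene are compared between arrays, never with those of another gene. Each array had 43379 spots that were not controls, of which 67.3% to 77% were well above background, with none saturated. Precision is limited by how many arrays there were. The arrays within a group were not equally distinct. In 9 of 24 pairs the arrays differed by less than the error the scanner software assigns to a spot (ratios of 0.372 to 0.656, against 1.1 to 4.28 in the other pairs), and such arrays were averaged and counted as 1 sample. This left 9 samples: white control arrays 1 and 4, white control arrays 2 and 3, white knockout array 1, white knockout arrays 2, 3 and 4, brown control array 1, brown control arrays 2 and 3, brown control array 4, brown knockout array 1, and brown knockout arrays 2, 3 and 4. Nr3c1 was lower on every knockout array than on every control array, by 0.89 ± 0.23 (SE) in white and 0.85 ± 0.21 in brown tissue (adjusted p = 0.415 and 0.619, limma over all genes). Brown control arrays 2 and 3 stood apart in some brown fat genes. Ucp1, the uncoupling protein that defines brown adipocytes, was at -0.75 on both, close to the white arrays (-2.44 to -0.84) and far from the other brown arrays (5.7 to 8.13), and Cidea was at 2.88 and 2.79 there against 6.98 to 8.71. Other genes of brown fat, which muscle also expresses, were at the brown level on these arrays: Cox7a1 was at 8.11 and 7.94 (7.67 to 8.11 over the brown controls, 1.13 to 2.48 over the white arrays) and Cpt1b at 4.77 and 4.67 (4.34 to 4.77, against -2.21 to -1.57). The skeletal muscle list was also at its brown level there, with medians of 8.85 and 8.8.

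In brown tissue most T cell genes were far brighter on the knockout arrays than on the control arrays. The median fitted difference over the 35 tested members was 3.18 on the log2 scale, and 3.03 over all 39 measured, against -0.122 over all genes. Of the 35, 28 had all 4 knockout arrays above all 4 control arrays, against 11.4% of all genes, and none had all 4 below (16.5% of all genes). In 20 the difference was above 8-fold. With the arrays averaged to 5 brown samples, no member passed an adjusted p of 0.05 in limma, and 0% of all genes did. Of the members, 21 had an unadjusted p under 0.05 with the knockout higher, against 2.93% of all genes. Without brown control arrays 2 and 3, 29 members were separate, 17 had an unadjusted p under 0.05 in limma, and none was called. Without brown knockout array 1, 31 members were separate. Groups of fewer arrays separate more easily, and the shares over all genes are not given for these counts. They cannot be set beside the shares above. With all 16 arrays taken as separate samples, 27 of the 35 passed in the higher direction and none in the lower, against 12.8% of all genes higher and 17.8% lower. In these bulk samples, more cells of a type and more RNA per cell cannot be told apart. Separate animals and repeats of 1 RNA cannot be told apart for the averaged arrays from these files.

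**Figure D1:**
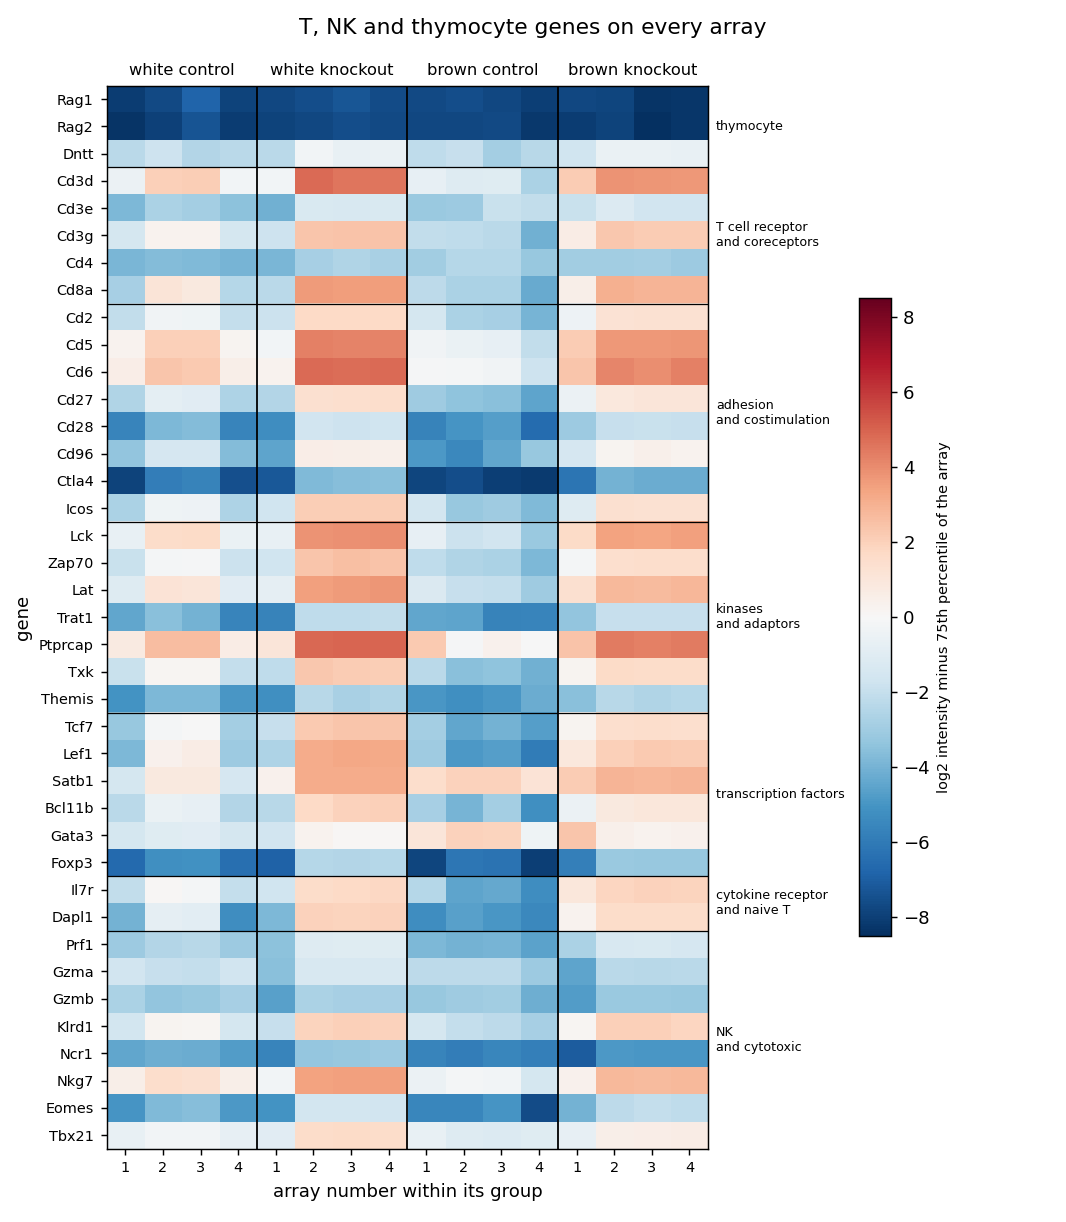
Level of each measured member gene (rows, grouped by role) on each of the 16 arrays (columns, grouped by tissue and genotype), as log2 intensity minus the array's 75th percentile (colour). Arrays 2, 3 and 4 of both knockout groups are bright across most T cell genes, while white knockout array 1 resembles the dimmer white control arrays.

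Of the receptor genes, Cd3d, a CD3 chain, was at -0.71, -1.08, -1.06 and -2.7 on the 4 brown control arrays and at 2.19, 3.8, 3.74 and 3.7 on the brown knockout arrays. The groups did not overlap, and the lowest knockout array was array 1. The fitted difference was 4.46 ± 1.47 (SE, 22.1-fold, 3 control and 2 knockout samples, unadjusted p = 0.0188, limma adjusted p = 0.619). Cd3g, the neighbouring CD3 chain, was at -2.08, -2.17, -2.32 and -4.07 in control and at 0.66, 2.3, 2.19 and 2.18 in knockout tissue, a difference of 4.24 ± 1.29. Its arrays took the same order of groups as those of Cd3d, with brown control array 4 lowest.

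Cd8a, the coreceptor of cytotoxic T cells, was at -2.23, -2.66, -2.67 and -4.26 in brown control and at 0.51, 2.99, 2.86 and 2.91 in brown knockout tissue (4.77 ± 1.85, 27.2-fold). Cd4, the coreceptor of helper T cells, was at -2.93, -2.44, -2.42 and -3.23 in control and at -2.96, -2.98, -2.88 and -3.1 in knockout tissue. The Cd4 groups overlapped, and the difference was -0.11 ± 0.39 (limma adjusted p = 0.921). Cd3e, the remaining CD3 chain, was at -3.18, -3.07, -1.9 and -2.06 in control and at -1.91, -1.17, -1.66 and -1.61 in knockout tissue. Its groups overlapped on 1 knockout array, and the difference was 0.88 ± 0.78. Cd3e and Cd4 were the 2 of 5 tested members of the receptor group whose brown arrays overlapped.

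Next came adhesion and costimulation. All 7 tested members (Cd2, Cd5, Cd6, Cd27, Cd28, Cd96 and Icos) had every brown knockout array above every brown control array, with differences from 2.94 for Icos to 3.94 for Cd6 and a median of 3.76. Ctla4, an inhibitory receptor of activated and regulatory T cells, was well above background on none of the brown control arrays and on 3 of the brown knockout arrays. Its brown control levels were -7.8, -7.53, -8.01 and -8.11 and its knockout levels -6.18, -4.01, -4.23 and -4.2, which is at least 1.68-fold higher. Here and for Foxp3 the bound sets the knockout mean against the lowest signal well above background on each control array.

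The 7 kinases and adaptors of receptor signalling also all had non-overlapping brown groups, with a median difference of 3.49. Lck, the kinase bound to the coreceptors, differed by 4.39 ± 1.44 (SE), with brown control arrays between -3.17 and -0.71 and brown knockout arrays between 1.63 and 3.47. Txk, a Tec-family kinase, and Lat, the membrane adaptor, differed by 4.21 and 4.13. The smallest difference in the group was that of Themis, which acts in thymocyte selection, at 1.74. Ptprcap, which binds the CD45 phosphatase, had 1 control array near the knockout range: brown control array 1 was at 2.22 and the lowest knockout array at 2.44.

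**Figure D2:**
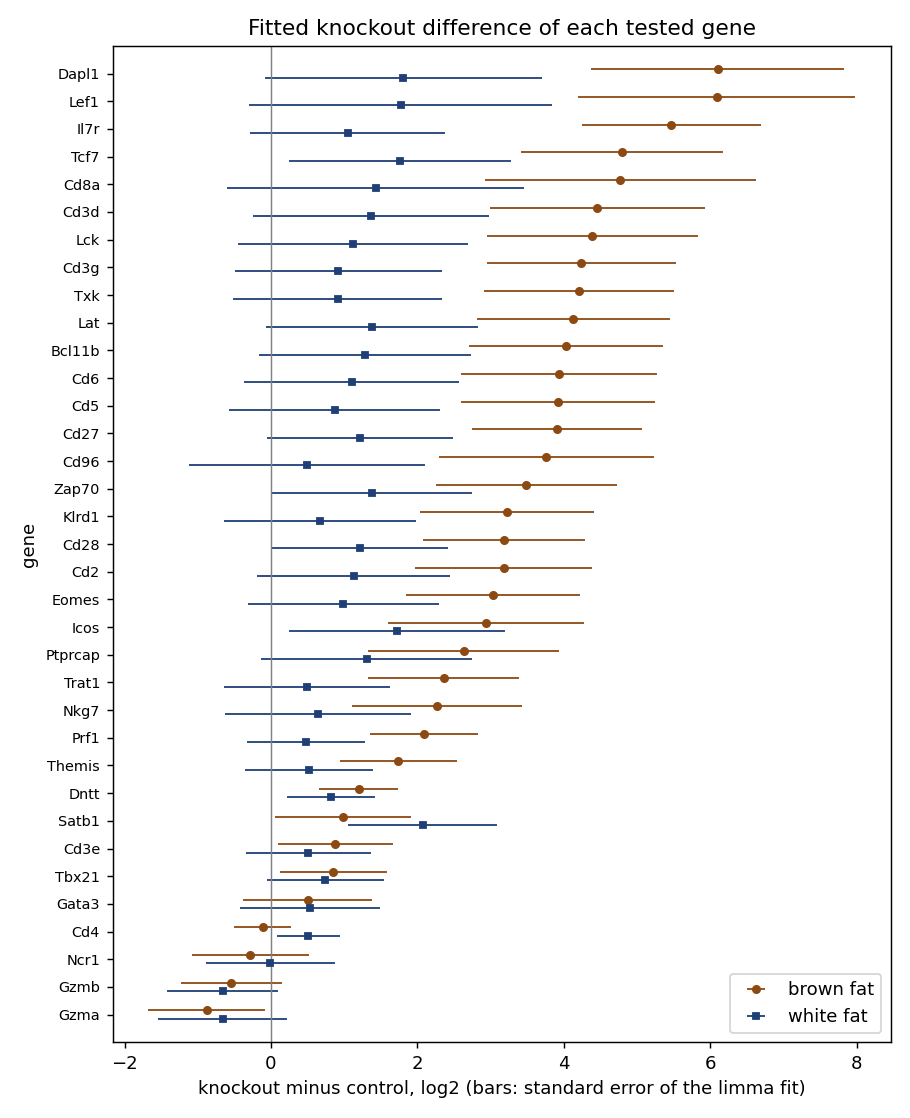
Fitted knockout minus control difference (log2, horizontal axis) of each of the 35 tested members in white and brown tissue, with bars of 1 SE, from the averaged samples. Brown differences reach 6.1 for Dapl1 and lie below 0 for Cd4, Ncr1, Gzmb and Gzma, and white differences lie between -0.66 and 2.07.

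Dapl1, Lef1 and Il7r had the largest brown differences of all members. Dapl1, a gene used as a marker of naive T cells, was at -5.29, -4.59, -4.98 and -5.47 in brown control and at 0.28, 1.58, 1.55 and 1.56 in brown knockout tissue (6.1 ± 1.73, 68.6-fold). Il7r, the receptor chain for the survival cytokine interleukin-7, was at -2.45, -4.5, -4.35 and -5.26 in control and at 0.97, 1.83, 1.93 and 1.89 in knockout tissue (5.47 ± 1.22, unadjusted p = 0.00276, limma adjusted p = 0.619). In both genes the groups were separated by more than the whole range within either of them.

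Among the transcription factors, Lef1 was at -3.02, -4.87, -4.67 and -5.94 in brown control and at 0.9, 2.04, 2.21 and 2.13 in brown knockout tissue (6.09 ± 1.89, 68.2-fold). Tcf7, its partner in early T cell specification, was at -2.9, -4.41, -4.02 and -4.7 in control and at 0.25, 1.44, 1.5 and 1.44 in knockout tissue (4.79 ± 1.38). Bcl11b, which commits precursors to the T lineage, was at -2.81, -3.95, -2.9 and -5.21 against -0.49, 0.81, 0.96 and 0.99 (4.03 ± 1.32). None of these 3 genes had overlapping brown groups.

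Satb1, a chromatin organiser of thymocytes, was already bright in brown control tissue at 1.49, 1.94, 1.97 and 1.18, and it was at 2.18, 2.89, 2.84 and 2.88 in knockout tissue. Its arrays were separate by group but close, with a difference of 0.98 ± 0.93 (SE). Gata3, a factor of helper T cells that other cells also make, was at 1.02, 1.95, 1.88 and -0.35 in control and at 2.36, 0.43, 0.3 and 0.35 in knockout tissue. It was the only transcription factor of the 5 tested whose brown groups overlapped, with brown knockout array 1 above arrays 2, 3 and 4. Foxp3, the factor of regulatory T cells, was well above background on no brown control array (-7.79, -6.15, -6.29 and -7.98) and on 3 brown knockout arrays (-5.82, -3.13, -3.23 and -3.23), at least 2.64-fold higher.

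The NK and cytotoxic genes were divided. Of 8 tested, 5 had a fitted brown difference above 0 and 4 had non-overlapping brown groups (Prf1, Klrd1, Nkg7 and Eomes), with a median difference of 1.47. Prf1, the pore-forming perforin, was at -3.83, -3.99, -3.93 and -4.56 in brown control and at -2.69, -1.33, -1.32 and -1.44 in brown knockout tissue (2.09 ± 0.74). Eomes, a factor of NK and cytotoxic T cells, was at -5.52, -5.53, -5 and -7.58, well above background on 1 of these 4 arrays, and at -4.04, -2.24, -2.05 and -2.15 in knockout tissue (3.03 ± 1.19). Klrd1, the receptor CD94 of NK cells and some T cells, differed by 3.22 ± 1.19.

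Ncr1, the activating receptor NKp46 that marks NK cells most closely, was at -5.59, -5.91, -5.54 and -5.84 in brown control tissue and at -7.09, -4.87, -4.93 and -4.94 in brown knockout tissue. It was well above background on 1 of the 4 control and 3 of the 4 knockout arrays, and its groups overlapped because knockout array 1 was lowest of all. Gzma, a granzyme, was at -2.21, -2.22, -2.2 and -3.07 in control and at -4.45, -2.3, -2.35 and -2.26 in knockout tissue. Gzmb, another granzyme, was at -3.2, -2.99, -2.96 and -4.14 against -4.78, -3.18, -3.15 and -3.24. For both granzymes brown knockout arrays 2, 3 and 4 lay inside the control range and knockout array 1 lay below it. The fitted differences of Ncr1, Gzma and Gzmb were -0.28 ± 0.8, -0.88 ± 0.8 and -0.54 ± 0.69 (SE).

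The thymocyte genes were looked at apart. Rag1 was not well above background on any array with its main probe, with levels from -8.07 to -6.82 in white control, -7.73 to -7.25 in white knockout, -7.98 to -7.53 in brown control and -8.35 to -7.75 in brown knockout tissue. A further Rag1 probe was well above background on white knockout array 4 alone, at -4.69. Rag2 was not well above background on any array either (-8.63 to -7.34 over all 16). Levels that were not well above background are not put in order here.

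Dntt was above background on all 16 arrays with its brightest probe. It was at -2.28, -1.77, -2.46 and -2.29 in white control, -2.28, -0.24, -0.61 and -0.56 in white knockout, -2.16, -1.99, -2.92 and -2.38 in brown control, and -1.67, -0.54, -0.59 and -0.65 in brown knockout tissue. The brown groups did not overlap (1.2 ± 0.54, SE, limma adjusted p = 0.619), and in white tissue knockout array 1 lay within the control range (0.82 ± 0.6). Another Dntt probe, dimmer but with a larger range, was at -7.91, -7.93, -7.64 and -8.37 in brown control, above background on none of them, and at -4.69, -3.08, -3.04 and -3.08 in brown knockout tissue, above background on all 4. The remaining Dntt probe was above background on no array, so the probes of Dntt disagree in the size of the difference. Over Rag1, Rag2 and Dntt the median difference was 0.145 in white and -0.19 in brown tissue. Since Rag1 and Rag2 were at background, this median is set by genes at background. It does not measure a change in thymocyte genes, of which Dntt alone could be followed.

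Of the 14 further probes of members with more than 1 probe, 13 had a brown difference above 0 and 12 had all 4 brown knockout arrays higher than all 4 controls. These probes belong to genes already counted, on the same arrays, and some did not pass the filter on dim probes. The 11.4% of all genes is for the probe that stood for each gene. No share over further probes is given for either tissue, so these counts add no separate support.

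In white tissue the groups overlapped for every member with the probe that stood for its gene. The median fitted difference was 0.99 over the 35 tested members, and over the 39 measured, against -0.0323 over all genes. Means lay above 0 for 32 of 35, but with these probes no member had all 4 white knockout arrays above all 4 controls, against 11.1% of all genes. Of the 14 further probes all had a white mean difference above 0, and 2 had all 4 white knockout arrays higher. These were the dim Rag1 probe above and a Bcl11b probe at -4.13, -1.88, -1.54 and -4.03 in white control and at -1.52, 0.39, 0.32 and 0.29 in white knockout tissue, so the probes of Bcl11b disagree on whether the white groups overlap. No member passed in limma with averaged samples (0% of all genes did), and none had an unadjusted p under 0.05 (3.57% of all genes had one with the knockout higher). With 16 separate arrays, 14 members passed, all higher, against 19.3% of all genes higher and 25.5% lower.

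The spread inside the white groups was the main feature of the member genes there. White control arrays 2 and 3 were above arrays 1 and 4 by a median of 1.77 (33 of 35 members above 0). White knockout arrays 2, 3 and 4 were above array 1 by a median of 3.76, in all 35 members. White knockout array 1 was below the control mean by a median of 0.84 (log2 difference of -0.84), with Satb1 the 1 member above it. The other white knockout sample was above the control mean by a median of 2.99 in all 35. Without white knockout array 1 the median difference over the 39 measured members was 2.99, and without white knockout arrays 2, 3 and 4 it was -0.814.

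**Figure D3:**
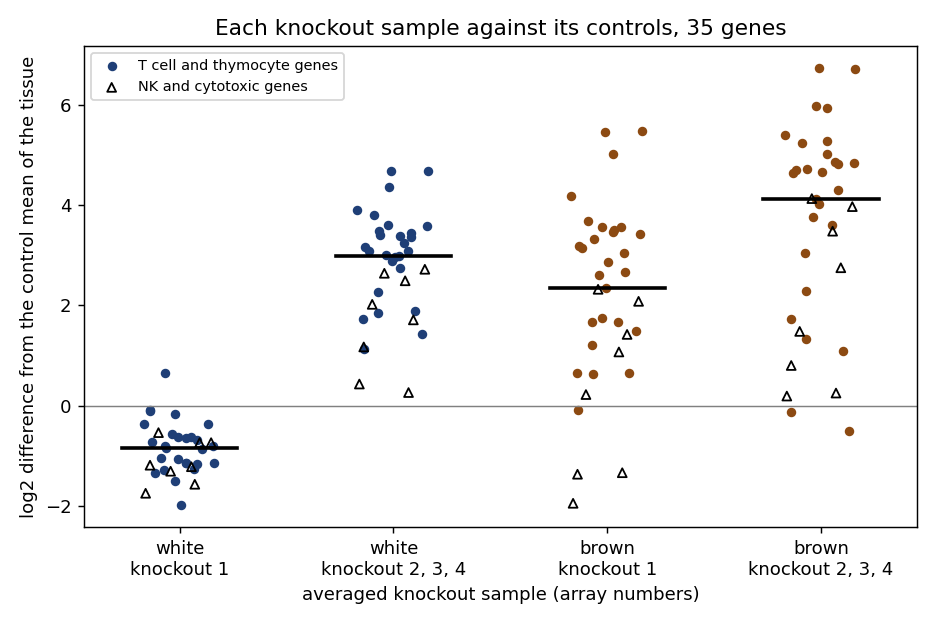
Difference of each knockout sample from the control mean of its tissue (log2, vertical axis) for the 35 tested members (points), with array 1 and the average of arrays 2, 3 and 4 apart. In white tissue the samples lie on opposite sides of 0 (medians -0.84 and 2.99), and in brown tissue both lie above it (2.34 and 4.13).

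The same arrays stood apart gene by gene. Cd3d was at -0.51, 2, 2.08 and -0.23 in white control and at -0.21, 4.79, 4.58 and 4.53 in white knockout tissue (1.37 ± 1.61, SE). Cd8a was at -2.83, 1.12, 0.86 and -2.42 against -2.32, 3.59, 3.52 and 3.54 (1.43 ± 2.03). In each case the controls fell into a dim and a bright pair, white knockout array 1 was among or near the dim pair, and the other knockout arrays were above the bright pair. Cd3g (-1.52, 0.33, 0.32 and -1.52 against -1.74, 2.34, 2.42 and 2.41) had the same layout.

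The transcription factors and naive T cell genes shared it. Lef1 was at -3.82, 0.38, 0.61 and -3.09 in white control and at -2.63, 3.13, 3.29 and 3.2 in white knockout tissue (1.77 ± 2.07). Tcf7 was at -3.21, -0.16, -0.02 and -2.92 against -1.95, 2.23, 2.36 and 2.39 (1.76 ± 1.52). Bcl11b was at -2.28, -0.56, -0.68 and -2.49 against -2.34, 1.7, 1.97 and 2.01. For Lef1 and Tcf7 white knockout array 1 lay between the dim and the bright control pair.

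Il7r was at -2.12, 0.07, -0.14 and -2.05 in white control and at -1.7, 1.56, 1.69 and 1.78 in white knockout tissue, and Dapl1 was at -4.03, -0.76, -0.89 and -5.28 against -3.81, 1.98, 1.89 and 1.99 (1.81 ± 1.89). Satb1, with the largest white difference of the members (2.07 ± 1.02, unadjusted p = 0.0827, limma adjusted p = 0.526), was at -1.51, 0.83, 0.84 and -1.43 in control and at 0.34, 3.14, 3.16 and 3.18 in knockout tissue. It too overlapped, since white knockout array 1 lay below the bright control pair.

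Cd3e was at -3.79, -2.68, -2.87 and -3.49 in white control and -4.07, -1.28, -1.35 and -1.31 in white knockout tissue. Cd4 was at -3.86, -3.67, -3.73 and -3.98 against -3.91, -2.79, -2.54 and -2.74 (0.51 ± 0.43). Unlike in brown tissue, the 3 brighter knockout arrays were above every control array for Cd4. Foxp3 was at -6.59, -5.2, -5.16 and -6.38 in white control, well above background on 2 arrays, and at -6.86, -2.45, -2.5 and -2.45 in white knockout tissue, well above background on 3.

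Of the NK and cytotoxic genes, Klrd1 was at -1.59, 0.26, 0.14 and -1.5 in white control and at -1.99, 1.92, 2 and 1.99 in white knockout tissue, and Nkg7 was at 0.49, 1.5, 1.35 and 0.5 against -0.26, 3.4, 3.46 and 3.49. Both had the layout of the CD3 genes. Prf1 was at -3.11, -2.48, -2.39 and -3.08 in control and at -3.51, -1.12, -1.06 and -1 in knockout tissue, and Eomes was at -4.99, -3.75, -3.6 and -4.91 against -5.06, -1.57, -1.58 and -1.61 (0.99 ± 1.31). Ncr1 was at -4.41, -4.18, -4.22 and -4.73 against -5.58, -3.31, -3.23 and -3.11, so that white knockout array 1 was lowest and the other 3 highest. The granzymes were reversed among the controls. Gzma was at -1.62, -1.93, -2.04 and -1.61 in white control and -3.55, -1.34, -1.38 and -1.38 in white knockout tissue, and Gzmb was at -2.71, -3.38, -3.24 and -2.79 against -4.6, -2.66, -2.8 and -2.85. White control arrays 2 and 3, bright for the CD3 genes, were the dimmer pair for both granzymes.

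The brown knockout samples also differed from each other. Arrays 2, 3 and 4 were above array 1 by a median of 1.45 (33 of 35 members), and above the control mean by a median of 4.13, while array 1 was above it by 2.34 (31 of 35 members above 0). Without brown knockout array 1 the median over the 39 measured members was 4.02, and without arrays 2, 3 and 4 it was 2.08, against 3.03 with both. Without brown control arrays 2 and 3, whose Ucp1 was near the white level, it was 3.23. On the 1 slide that held brown control arrays 3 and 4 and brown knockout arrays 1 and 2, the median over the 35 was 3.54, with 31 above 0. On the slide that held white control arrays 3 and 4 and white knockout arrays 1 and 2, the median was 1.02, with 33 above 0. No other slide held both genotypes of a tissue.

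The test of whether the knockout difference was larger in brown than in white tissue had a median of 2.05 over the 35 members (0.0119 over all genes). No member passed (limma adjusted p = 1 for each, and 0% of all genes passed). Il7r was the 1 member with an unadjusted p under 0.05 and the brown difference larger (4.42 ± 1.81, SE, unadjusted p = 0.0439), against 0.601% of all genes. With 16 separate arrays 0 members passed, against 1.53% of all genes higher and 2.61% lower. The brown and white knockout differences of the members are therefore not shown to differ. Without white knockout array 1 the median of this difference was 0.187 over the 39 measured members.

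Between the control tissues, brown minus white, the median over the 35 members was -1.69 (-0.086 over all genes). No member passed in limma with averaged samples (adjusted p from 0.203 to 0.898), against 5.09% of all genes called. The brown control arrays lay below the white control arrays without overlap for 16 members (26.2% of all genes), and above them for 3 (22.1% of all genes), which were Cd4, Satb1 and Gata3. With 16 separate arrays, where 19.8% of all genes were called higher and 19.6% lower, the same 3 genes passed as higher in brown control tissue in limma (Cd4 by 1.06, Satb1 by 1.96 and Gata3 by 2.36, adjusted p = 0.00518, 0.0305 and 0.00545), and Il7r, Txk and Prf1 passed as lower (-3.08, -2.45 and -1.31). When the knockout sample on arrays 2, 3 and 4 of both tissues was left out, Prf1 and Ncr1 passed as lower in brown control tissue (-1.35 and -1.33, limma adjusted p = 0.05 and 0.0154), with 15.2% of all genes called. The adjusted p of Prf1 lay at the threshold. In knockout mice the brown minus white median was 0.76, and no member passed with averaged samples (1.51% of all genes did). With 16 arrays Ncr1 passed as lower in brown knockout than in white knockout tissue (-1.65, limma adjusted p = 0.0383), with 13% of all genes called higher and 12.8% lower. With the averaged samples and the replicate number as a block within the knockout samples, Ncr1 was the 1 member that passed (-1.6, limma adjusted p = 0.0137, 2 samples in each knockout group, 4.03% of all genes called). That pairing rests only on array 1 standing apart from arrays 2, 3 and 4 in both tissues. The knockout and tissue comparisons share the groups they are made from.

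Other genes of the same cells were taken from fixed lists. Of 31 other T cell receptor signalling genes 29 were tested and 27 had a brown mean difference above 0. The median was 2.48 in brown and 0.923 in white tissue. Non-overlapping higher brown knockout arrays were found for 19, against 11.4% of all genes. None passed in limma with averaged samples. Skap1 and Grap2, which are adaptors, differed by 4.4 ± 1.21 and 4.04 ± 1.51 (SE) in brown tissue.

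Of 7 naive and recirculating lymphocyte genes, 4 had non-overlapping higher brown knockout arrays and 1 lower (11.4% and 16.5% of all genes). Their median was 0.579 in brown and 0.438 in white tissue. Ccr7, the receptor that brings lymphocytes into lymph nodes, differed by 4.9 ± 2.05 in brown tissue. S1pr1, used to leave lymph nodes, differed by 0.7 ± 0.28. Of the 20 other NK and cytotoxic genes, 18 were tested and 16 had brown means above 0, with a median of 1.3. Non-overlapping higher brown knockout arrays were found for 8, against 11.4% of all genes. These included Cst7 (3.2 ± 1.42), Ctsw (3.02 ± 1.44) and Il2rb (2.79 ± 1.31). Of genes of regulatory and other T cell subsets, 15 were tested, with a median of 1.15. Of these, 4 had non-overlapping higher and 2 lower brown knockout arrays (11.4% and 16.5% of all genes), the lower count lying near its share. Pdcd1, the checkpoint receptor PD-1, differed by 3.07 ± 1.22.

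Of 18 other immature thymocyte genes 17 were tested. In brown tissue 9 had a mean difference above 0 and 6 had non-overlapping higher knockout arrays (11.4% of all genes), with a median of 0.138. In white tissue the median was 1.24. Of the non-overlapping ones, the largest were Ikzf1 (3.22 ± 1.22), Tox (2.83 ± 0.75) and Ccr9 (2.76 ± 1.47), which mature lymphocytes also express. Tox was the 1 of these 3 that was also separate in white tissue (2.2 ± 0.82). Of 14 tested thymic epithelium genes, 1 was higher and 3 were lower without overlap in brown knockout tissue (11.4% and 16.5% of all genes), with a median of -0.252. The higher one was Prss16, a thymus-specific serine protease, at -5.54, -5.26, -5.34 and -5.54 in brown control and at -3.76, -4.15, -3.97 and -4.31 in brown knockout tissue (1.51 ± 0.55, SE, limma adjusted p = 0.619), while its white groups overlapped. With normexp background correction its brown difference was -0.21. Foxn1, the factor that specifies thymic epithelium, lay between -7.23 and -5.95 in white control and between -7.76 and -5.81 in white knockout tissue. In brown tissue it lay between -5.5 and -4.33 in control and between -6.93 and -4.66 in knockout, so the control tissues did not overlap. Psmb11, the thymus-specific proteasome subunit, lay between -8.27 and -4.4 on all arrays. Aire, which thymic epithelium and some lymph node cells express, lay between 0.3 and 0.39 on white knockout arrays 2, 3 and 4 and between -0.97 and -0.89 on brown knockout arrays 2, 3 and 4, against -5.86 to -1.96 on the control arrays. On knockout array 1 it lay within the control range, at -4.68 in white and -3.54 in brown tissue. The summed linear level of the thymic epithelium list was 3.57 to 6.04 in white control and 3.94 to 4.8 in white knockout tissue, and 16.4 to 49.7 in brown control and 10.7 to 48.3 in brown knockout tissue. Such a sum is weighted to bright genes, here the keratin gene Krt8 (0.09 to 1.76 in white control, 2.5 to 5.2 in brown control). Foxn1 and Psmb11 were dim in all groups, so the sum is not a measure of thymic epithelium. Between the control tissues, 9 of the 14 were higher and 1 lower in brown without overlap (22.1% and 26.2% of all genes). The median was 2.12, and 4 were called higher in limma with averaged samples, against 5.09% of all genes called either way. Whether thymic epithelium had a part in this was not tested.

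**Figure D4:**
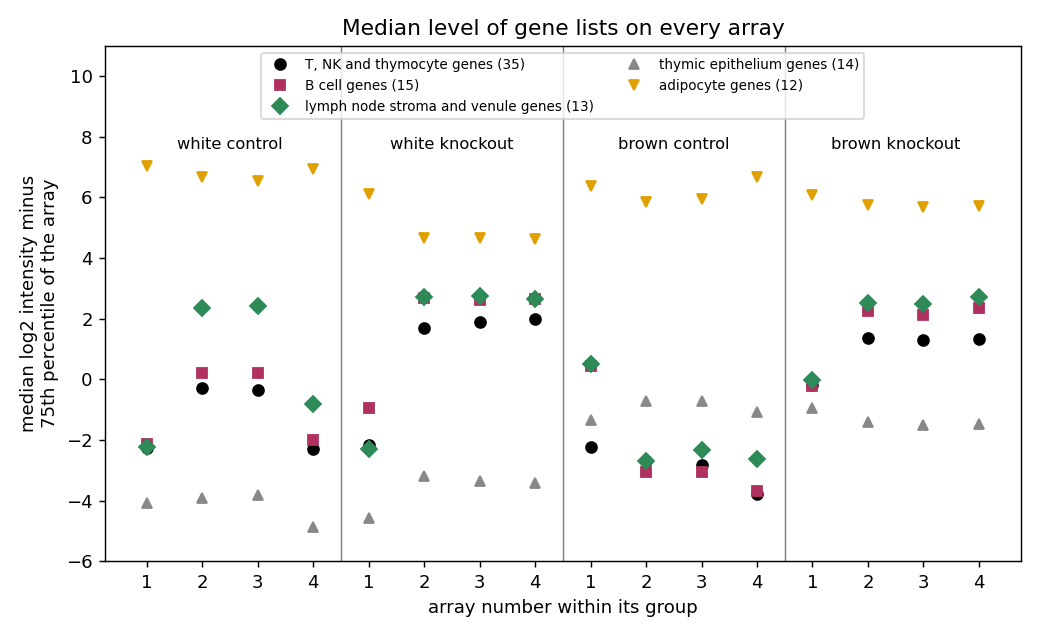
Median level (log2 intensity minus the array's 75th percentile, vertical axis) of the member genes and of marker lists of other cell types on each of the 16 arrays (horizontal axis, by group). The members' median lies between 1.3 and 1.99 on arrays 2, 3 and 4 of both knockout groups and between -3.79 and -0.28 on the control arrays.

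Markers of other cell types were bright on some of the same arrays. Of 15 tested B cell genes, 14 had means above 0 in each tissue, with medians of 1.65 in white and 3.65 in brown tissue. The summed linear level of the 16 B cell genes was 12.5 to 56.3 in white control, 25.5 to 287 in white knockout, 4.5 to 66 in brown control and 39.9 to 193 in brown knockout tissue. None of the 15 had non-overlapping brown groups (11.4% of all genes were higher and 16.5% lower). Brown control array 1 was bright for B cell genes (Cd79b, a chain of the B cell receptor, was at 4.34 against -1.16 to -0.18 on the other brown controls), while Cd3d on that array was at -0.71.

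Of 13 genes of lymph node stroma and high endothelial venules, 3 were higher and 1 lower without overlap in brown knockout tissue (11.4% and 16.5% of all genes). Their medians were 0.428 in white and 1.08 in brown tissue. Ccl19 and Ccl21a, the chemokines that call lymphocytes into lymph nodes, differed by 3.77 ± 1.57 and 3.62 ± 1.17 (SE) in brown tissue. Ccl21a was at 3.46, 4.82, 4.83 and 3.45 in white control, 3.4, 7.11, 7 and 7.04 in white knockout, 0.51, 0.44, 0.54 and 0.77 in brown control and 2.85, 5.57, 5.54 and 5.57 in brown knockout tissue. Outside the brown control group, where its 4 arrays were alike, the bright and dim arrays of Ccl21a were those of the T cell genes. Glycam1, a mucin of these venules, was at -3.43, 3.96, 4.05 and -0.8 in white control, -3.82, 6.36, 6.17 and 6.2 in white knockout, 1.49, -3.69, -5.15 and -6.58 in brown control and 0.02, 5.95, 5.89 and 5.96 in brown knockout tissue. The summed linear level of the 13 genes was 198 to 290, 218 to 697, 144 to 180 and 190 to 392 in the 4 groups in that order. This sum is weighted to the brightest gene, Mfge8, at 7.25 to 7.61, 7.41 to 8.33, 6.9 to 7.16 and 7.22 to 7.52 in the same order. The part of the 13 genes in the T cell result was not tested.

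Of 13 proliferation genes, 12 had non-overlapping higher brown knockout arrays (11.4% of all genes). Their medians were 1.07 in white and 2.06 in brown tissue. Ccnb1 (2.8 ± 1.09), Top2a (2.72 ± 1.05) and Aurkb (2.55 ± 0.97) led them in brown tissue. Plasma cell genes had medians of 0.822 and 0.813, dendritic cell genes 0.379 and 0.919, and macrophage genes -0.275 and -0.402 in white and brown tissue. Of the 7 plasma cell genes, 5 had non-overlapping higher white knockout arrays (11.1% of all genes). In brown tissue 3 did (11.4% of all genes), and none was lower without overlap in either tissue. The 12 adipocyte genes had medians of -0.895 in white and -0.301 in brown tissue, with no mean above 0 in either. Mesothelial genes, which mark the lining of visceral fat, had medians of -1.83 and -1.09, and skeletal muscle genes 0.691 and -0.74. The summed linear level of 8 skeletal muscle genes was 3.02 to 9.3 over the white arrays and 1400 to 3430 over the brown arrays. No gene of these lists passed in limma with averaged samples in either knockout comparison, and the part of these cell types in the members' differences was not tested.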

How the data were processed

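Total RNA of 16 samples was labelled with Cy3 and hybridised to one-colour Agilent arrays, per the labels' protocols. The deposited scanner files hold linear intensity per spot from Agilent Feature Extraction 12.0.0.7, background-subtracted and detrended within the array, per the file headers. The authors' value table equalled the mean processed intensity of all 41174 probes to within rounding.

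Outlier spots were left out, spots of a probe averaged, and log2 intensity centred on each array's 75th percentile. RefSeq accessions matched 28223 probes to 19096 genes (GRCm38.p6 table; the array design names another build, so probes have no coordinates here). Kept probes cleared background on each of the 4 arrays in some group, and the brightest stood for its gene. Arrays of a group differing by less than the scanner error (scaled median absolute deviation below 1 over 10067 bright probes) were averaged, which makes 9 samples. The 16-array fit is an alternative. Groups were fitted with limma 3.58.1 in R 4.3.3 (1 mean per group, 5 residual degrees of freedom, Benjamini-Hochberg over 15469 genes, threshold 0.05). SE and p-values come from this fit, which was tested on simulated data. The simulated spread was the same for all genes and below that of the median member level (SD 1.57 between averaged samples). The simulation therefore does not test the fit at the spread of the members. Same-numbered arrays deviated together only between the white and brown knockout groups (correlations of 0.569, 0.435, 0.471 and 0.294), so the numbers were taken as pairs there alone. Knockout arrays 2, 3 and 4 were averaged as 1 sample in each tissue. The correlations therefore reflect 1 contrast, array 1 against the rest, and cannot show whether the samples are paired. P-values measure only the spread between these samples. Python 3.11.15 did the rest.

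The members and gene lists were chosen with earlier results of these data known. Values on every array are given for set T, NK and thymocyte genes and the 3 highest and 3 lowest members of each knockout comparison, and up to 3 genes of each list are named by size or p. Icos, Cd6, Lck, Txk, Lat, Themis, Ptprcap, Klrd1, Ctla4, Gata3, Ucp1, Cidea, Cox7a1, Cpt1b, Nkg7, Prss16, Foxn1, Psmb11, Aire, Cd79b and Glycam1 were chosen after their values were seen. Some genes that the rule names are not reported here.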

Additional observations from a re-analysis of the deposited data

How the results depend on the processing

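With averaged samples no member passed in either knockout comparison. This held with quantile scaling, with no scaling, with normexp, without the filter on dim probes and without any 1 brown control sample. A fixed slide block, fitted to 16 separate arrays, called no member there either. It called 1.25% of all genes in white and 0.00646% in brown tissue. Taking all 16 arrays as separate samples called 14 members in white and 27 in brown knockout tissue, 6 between control tissues and 1 between knockout tissues. The shares of all genes called were 44.8%, 30.6%, 39.3% and 25.8% in that order. With slide as a random block the member counts were 14, 27, 6 and 1, with 45.2%, 30.6%, 39.7% and 26.1% of all genes called. With the replicate number as a block they were 22, 27, 11 and 1, with 46.1%, 32.2%, 40% and 25.3% of all genes called. Between control and knockout groups and between control tissues same-numbered arrays did not all deviate together (correlations of 0.412, 0.192, 0.294 and -0.516 in white tissue), so the numbers were not taken as pairs there. The averaged fit with a replicate block within the knockout samples, chosen after seeing the data, called 1 member between knockout tissues. It called no gene for the knockout difference in brown minus white tissue, the only other comparison it was run on.

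Leaving out 1 sample gave member medians of -0.814 to 2.99 in white, 2.08 to 4.02 in brown and 0.187 to 3.77 for brown minus white, and thymocyte medians of -0.144 to 0.434, -0.387 to 0.00706 and -0.556 to 0.159. The thymocyte medians rest on Rag1 and Rag2 at background, so they do not measure a change in thymocyte genes. Calls between control tissues ranged from 0 to 2. Of the genes given array by array, the white differences that changed sign ranged from -0.09 to 1.73 for Dntt, -1.05 to 3.8 for Cd3d, -0.87 to 1.89 for Cd3e, -1.14 to 2.99 for Cd3g, -0.1 to 1.12 for Cd4, -1.5 to 4.37 for Cd8a, -0.37 to 3.9 for Tcf7, -1.15 to 4.69 for Lef1, -0.84 to 3.4 for Bcl11b, -0.64 to 2.74 for Il7r, -1.07 to 4.69 for Dapl1, -0.74 to 1.71 for Prf1, -1.31 to 2.64 for Klrd1, -1.22 to 2.49 for Nkg7, -1.75 to 0.43 for Gzma, -1.57 to 0.26 for Gzmb, -1.19 to 1.17 for Ncr1 and -0.74 to 2.72 for Eomes. The brown ones were -0.29 to 0.11 for Cd4, -0.5 to 1.49 for Gata3, -1.95 to 0.19 for Gzma, -1.34 to 0.25 for Gzmb and -1.37 to 0.8 for Ncr1.

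Under other settings, Ncr1 in white tissue was 0.58 with 16 arrays, with the replicate block and with the random slide block, 0.03 with the fixed slide block and 0.23 with normexp on the median signals, an alternative chosen after seeing the data in place of the planned mean signals. Brown minus white control Ncr1 was 0.27 and Prss16 in brown tissue -0.21 with normexp. Ncr1 in brown tissue was 0.26 in the 3 fits to 16 arrays without a fixed slide block and 0.15 without scaling, Gata3 in brown tissue was -0.27, -0.27 and -0.28, and Cd4 in brown tissue was 0.32 without scaling. The thymocyte median was -0.775 in brown and -0.986 for brown minus white with normexp, 0.221 for the latter with quantile scaling, and 0.24 and 0.43 without scaling, where the median of all genes was itself -0.231 in white and 0.308 in brown tissue. The cause of these changes was not tested. Signals near background limit Rag1, Rag2, Foxp3, Ctla4 and Ncr1, and through Rag1 and Rag2 the thymocyte median.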
